A study of Mus musculus with 19 samples.

Results

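T lymphocytes at the tenotomy site of mice that form heterotopic ossification (HO) after burn injury were examined by single-cell RNA sequencing. A barcode was taken as a T cell when it had at least 500 genes, at most 25% mitochondrial UMIs (unique molecular identifiers, 1 per captured transcript), a UMI of at least 2 of the 3 genes Cd3d, Cd3e and Cd3g, and no UMI of Csf1r, Pdgfra, Cdh5 or Cd79a. These 4 excluded genes mark macrophages, mesenchymal cells, endothelium and B lymphocytes. The rule found 266 T cells among 39541 cells kept in 19 libraries. The deposited tissue came from the hindlimb tenotomy site of C57 mice (young adult males of the strain C57BL/6J in the study's methods), given a dorsal burn of 30% of the body surface and an Achilles tendon transection; the labels also list a LysmCre/Tgfb1 floxed line for the series as a whole and give no genotype for a single library. Groups were day 0 (4 libraries), day 3 (3 libraries), day 7 (4 libraries), day 21 (4 libraries) and p7N3 (4 libraries). The day 0 mice were uninjured according to the results section of the paper, although their labels carry the same burn description as the others. The p7N3 mice received a CD47-activating peptide at 10 mg per kg daily for 3 days before and 3 days after injury and were harvested at day 7, a day that the label of replicate 4 does not give. The study set peptide-treated mice against mice given PBS, and the labels of the day 7 libraries name no vehicle. No label says whether a library is 1 animal or a pool. The reporting summary of the study states that replicates at each time point served to determine variability between mice. The p-values here measure the spread between libraries, which may be partly technical.

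T lymphocytes recognise peptides through the T cell receptor, which signals through the CD3 chains. Killer cells carry the coreceptor CD8, helper cells carry CD4, and regulatory T cells, set by the factor Foxp3, restrain inflammation and in injured tissue can release the repair factor amphiregulin. Naive cells circulate through lymph nodes by means of CCR7 and L-selectin, and lose these receptors once activated. In muscle and tendon injury T cells are a small population beside macrophages.

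The 3 genes that define the cells lie together on mouse chromosome 9 (GRCm38). Cd3g occupies chr9:44969572-44980431 on the minus strand, Cd3d chr9:44981786-44987339 on the plus strand, and Cd3e chr9:44998740-45009627 on the minus strand. The start sites of Cd3g and Cd3d were 1355 bases apart and face away from each other. Since all members were chosen through these transcripts, the 250 bases before each RefSeq start site (GRCm38.p6) are shown, 5′ to 3′ on the strand of the gene, with capitals for the GATA motif AGATAA. The windows are chr9:44980432-44980681 for Cd3g, chr9:44981536-44981785 for Cd3d and chr9:45009612-45009861 for Cd3e.
Cd3g: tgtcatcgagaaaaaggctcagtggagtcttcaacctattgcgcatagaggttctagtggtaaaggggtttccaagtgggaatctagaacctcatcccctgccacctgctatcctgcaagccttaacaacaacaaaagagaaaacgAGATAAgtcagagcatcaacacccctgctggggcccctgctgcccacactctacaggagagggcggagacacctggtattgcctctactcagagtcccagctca
Cd3d: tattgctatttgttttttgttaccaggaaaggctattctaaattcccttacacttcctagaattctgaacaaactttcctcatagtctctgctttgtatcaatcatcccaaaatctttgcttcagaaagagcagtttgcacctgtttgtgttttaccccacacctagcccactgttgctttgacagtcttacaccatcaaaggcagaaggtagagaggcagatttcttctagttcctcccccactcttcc
Cd3e: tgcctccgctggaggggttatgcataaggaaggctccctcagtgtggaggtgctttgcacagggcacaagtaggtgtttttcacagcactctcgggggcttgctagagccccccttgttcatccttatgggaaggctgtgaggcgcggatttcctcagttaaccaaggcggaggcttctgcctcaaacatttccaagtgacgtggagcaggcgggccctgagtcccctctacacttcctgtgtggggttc
Searched on both strands were the GATA motif AGATAA, the TATA box written TATAAA, and a RUNX motif written TGTGGT. The Cd3g window held the GATA motif once, 104 to 99 bases before the start, and the other windows held none of the 3 motifs. Over 32851 promoter windows of the same length, the TATA box letters stood in 12.4%, the RUNX letters in 14% and the GATA letters in 9.99%.

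Among the 266 members, 204 had UMIs of all 3 Cd3 genes, 45 of Cd3d and Cd3g, 10 of Cd3d and Cd3e, and 7 of Cd3e and Cd3g. Just outside the rule were 112 cells with 1 Cd3 gene and no excluded gene. Another 61 cells had at least 2 Cd3 genes but carried an excluded gene, which was Csf1r in 33, Pdgfra in 24, Cdh5 in 9 and Cd79a in 3. At day 3, 10 cells were excluded this way, as many as the 10 members of that day. The label was checked with genes that the rule did not use. Of 17 T cell identity genes listed, 14 were in the gene table, and all 14 were detected in a larger share of T cells than of Csf1r cells and of Pdgfra cells. The Csf1r and Pdgfra cells compared had no Cd3 UMI. Lck, the kinase of the T cell receptor complex, had a UMI in 71.8% of T cells, 1.18% of Csf1r cells and 1.38% of Pdgfra cells. Cd6, a T cell surface receptor, had a UMI in 42.5% of T cells, in 0.132% of Csf1r cells and in none of 140 NK cells (no Cd3 UMI, at least 2 of 4 NK genes). NK cells had a UMI of Lck in 73.6% and of Cd2, also listed, in 77.9%, against 71.8% and 77.1% of T cells. These 2 genes did not set T cells apart from NK cells. Against Pdgfra cells, Thy1, which mesenchymal cells also carry, was the least selective, with 75.9% of T cells against 68.3%. The median depth was 4287 UMIs in T cells, 7472 in Csf1r cells and 14630 in Pdgfra cells. RNA of other cells was present as well: Col1a1 had a UMI in 77.4% and Lyz2 in 57.5% of T cells, against 89.1% and 81.0% of all other kept cells. At day 0 Col1a1 had a UMI in 3 of 16 T cells, and at day 7 in 93 of 114.

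The libraries differed in what else their T cells carried. In the 7 T cells of day 21 replicate 4, a single cell of 27923 UMIs held 167 UMIs of Mbp, a myelin gene, and 408 of Col1a1. In the same library, 427 and 429 UMIs of Cd74, the MHC class II chaperone, were in 2 other cells. In day 7 replicate 3, 1143 UMIs of the hemoglobin gene Hbb-bs came from 1 of 13 T cells. All 7 stromal and all 10 macrophage markers listed were detected in T cells, with Col1a1 (2102 UMIs) and Apoe (845 UMIs) the most abundant. Summed stromal markers ranged from 454 to 26170 CPM (the UMIs of a gene over all UMIs of the summed T cells of a library, times 1000000), with the highest value in day 21 replicate 4 and the next, 16244 CPM, in day 7 replicate 2. In the gene table were 5 B cell markers, of which 2 were detected, with 26 UMIs in all T cells, 22 of them of Cd79b, and Ms4a1 and Pax5 were at 0. T cells with over 2% of their UMIs in the other-cell-type lists numbered 25. Across libraries, 975 of 38554 distinct barcode sequences were kept in more than 1 library, and no sequence was a T cell in more than 1.

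T cells were few at every time. At day 0 the libraries held 8, 1, 5 and 2 T cells, at day 3 they held 4, 2 and 4, at day 7 they held 45, 35, 13 and 21, at day 21 they held 8, 4, 4 and 7, and with p7N3 they held 35, 32, 21 and 15. As a share of kept cells the mean was 0.413% ± 0.283 (SD, n = 4) at day 0, 0.178% ± 0.0748 (n = 3) at day 3, 0.859% ± 0.431 (n = 4) at day 7, 0.436% ± 0.0669 (n = 4) at day 21 and 0.894% ± 0.280 (n = 4) with p7N3. All 4 day 7 libraries lay above all 3 day 3 libraries. That difference of 0.681 percentage points had an exact two-sided permutation p of 0.0571, the smallest that 4 against 3 libraries allow, and an adjusted p of 0.286 over 6 pairs (Benjamini-Hochberg). No pair passed the threshold of 0.05 after adjustment, and with 3 libraries at day 3 no pair with day 3 could. For p7N3 against day 7 the difference was 0.0359 percentage points (exact permutation p = 0.914). The 95% interval (exact binomial, counting error only) of a single library was wide, from 0.0113% to 0.338% in day 3 replicate 2 and from 1.01% to 1.84% in day 7 replicate 1.

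Day 3 also had the lowest mean among leukocytes. T cells made up 0.204% ± 0.0699 (n = 3) of the cells with a UMI of Ptprc, the pan-leukocyte gene CD45, at day 3, when 4449 cells had such a UMI, against 2.64% ± 2.23 (n = 4) at day 0, 1.74% ± 0.825 at day 7, 2.18% ± 0.429 at day 21 and 1.70% ± 0.386 with p7N3. Day 0 and day 21 had 386 and 762 Ptprc cells. In day 0 replicate 4 neither T cell had a Ptprc UMI, so its share was 0. None of 6 pairs passed, the lowest adjusted p (exact permutation) being 0.343 for day 7 against day 3, where all 4 libraries were above all 3. The smallest p that 4 against 3 libraries allow is 0.0571 before adjustment, so no pair with day 3 could pass. In tissue taken apart by digestion, fewer T cells and more of other cells cannot be told apart. NK cells numbered 11, 4, 63, 6 and 56 from day 0 to p7N3. The mean log2 ratio of T to NK cells, with 0.5 added to each count, was 0.21 at day 0, 0.75 at day 7, 2.18 at day 21 and 0.95 with p7N3. None of 3 pairs passed (lowest adjusted exact permutation p = 0.343, day 21 against day 0). Day 21 replicates 3 and 4 held 0 NK cells, so their ratios of 3.17 and 3.91 rested on the added 0.5. Replicates 1 and 2 stood at 1.28 and 0.36. The difference between day 21 and day 0 was 1.97, but 0.844 with at least 1 NK gene required and 1.16 with replicates 1 to 3 only.

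**Figure D1:**
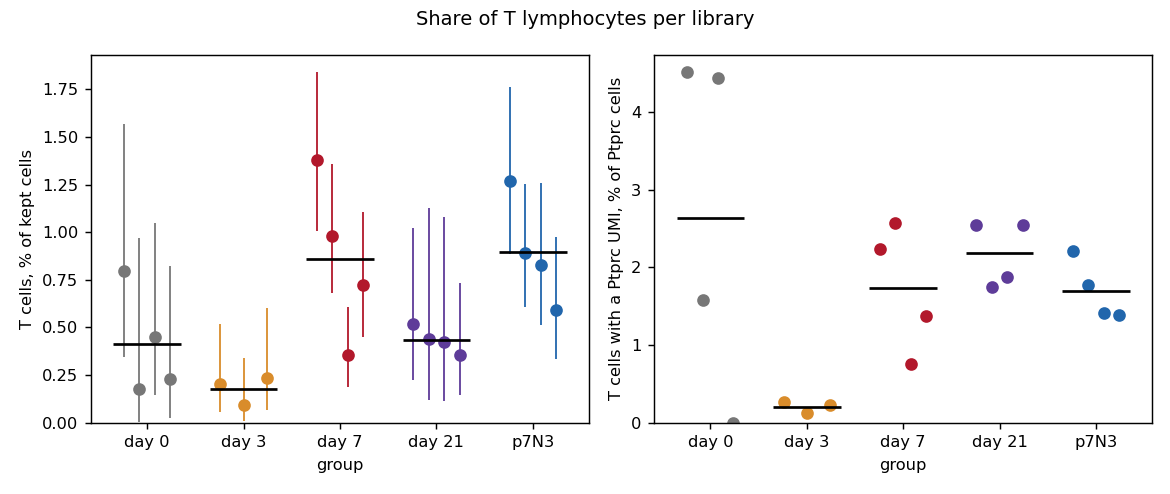
T cells of each library as a percent of kept cells (left, with exact 95% binomial intervals) and of Ptprc cells (right); points are libraries, grouped by day and treatment, and lines are group means. The 3 day 3 libraries lie below all day 7, day 21 and p7N3 libraries in both panels, with single day 0 libraries as low or lower, and the day 7 and p7N3 libraries overlap.

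The kinds of T cell were read from single subset genes. Foxp3 was detected in 1 of 16 T cells at day 0, 2 of 10 at day 3, 34 of 114 at day 7, 0 of 23 at day 21 and 37 of 103 with p7N3. Per library the Foxp3 share at day 7 was 24.4%, 31.4%, 30.8% and 38.1%, and with p7N3 it was 40%, 34.4%, 33.3% and 33.3%; all 4 day 21 libraries were at 0, where 0 of 23 cells allow a share of cells with a UMI of up to 13.04% (3 counts; the exact binomial upper bound is 14.8%). The share in Csf1r cells, which should lack Foxp3, was 0.166%, and in NK cells 0. Comparing libraries whatever their number of T cells, a test chosen after the cell numbers were seen, day 7 lay above day 21 in 4 of 4 libraries (means 31.2% and 0%, exact permutation p = 0.0286, the smallest possible, adjusted p = 0.0857 over 12) and above day 0 in 4 of 4 (mean 3.13%, same p values). With each T cell thinned to 1500 UMIs, the means were 9.30%, 0% and 3.13%, and the adjusted exact permutation p was 0.171 for day 21 and 0.343 for day 0. The Foxp3 shares of p7N3 and day 7 differed by 4.08 percentage points (exact permutation p = 0.286, adjusted p = 0.381 over 4). After thinning they were 6.67%, 8.57%, 7.69% and 14.3% at day 7 and 22.9%, 15.6%, 9.52% and 20% with p7N3, so that 3 of the 4 p7N3 libraries lay above all day 7 libraries. That difference was 7.70 percentage points (exact permutation p = 0.0571, adjusted p = 0.229 over 4) and did not pass.

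Cells with a UMI of Cd8a or Cd8b1, the 2 chains of CD8, were 7 of 16 at day 0, 1 of 10 at day 3, 24 of 114 at day 7, 10 of 23 at day 21 and 10 of 103 with p7N3. Per library they were 11.1%, 25.7%, 38.5% and 23.8% of T cells at day 7, and 17.1%, 3.13%, 9.52% and 6.67% with p7N3, so that 1 p7N3 library lay within the day 7 range. The means, 24.8% and 9.11%, gave a difference of -15.7 percentage points (p7N3 minus day 7) with an exact permutation p of 0.0571 and an adjusted p of 0.171. With each T cell thinned to 1500 UMIs, the difference was -7.03 percentage points. Cd4, the helper coreceptor, had a UMI in 3 of 16, 3 of 10, 32 of 114, 2 of 23 and 24 of 103 T cells, and 155 of the 266 T cells had a UMI of neither coreceptor. In Csf1r cells the share with Cd4 was 7.44%.

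Il17a, a cytokine of type 17 T cells, had a UMI in 8 T cells in all, and 25 of its 29 UMIs in p7N3 replicate 3 came from 1 cell. Cycling cells, with a UMI of the proliferation genes Mki67 or Top2a, were 0 of 16 at day 0, 5 of 10 at day 3, 26 of 114 at day 7, 4 of 23 at day 21 and 26 of 103 with p7N3. The share of Pdgfra cells with either gene was 54.3% at day 3 and 18.0% at day 7, so that detection in T cells was not above that in other cells at day 3. At day 7 and after thinning, 14.0% of T cells and 4.60% of Pdgfra cells had one. For p7N3 against day 7 the means were 28.9% and 26.0% (exact permutation p = 0.8).

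**Figure D2:**
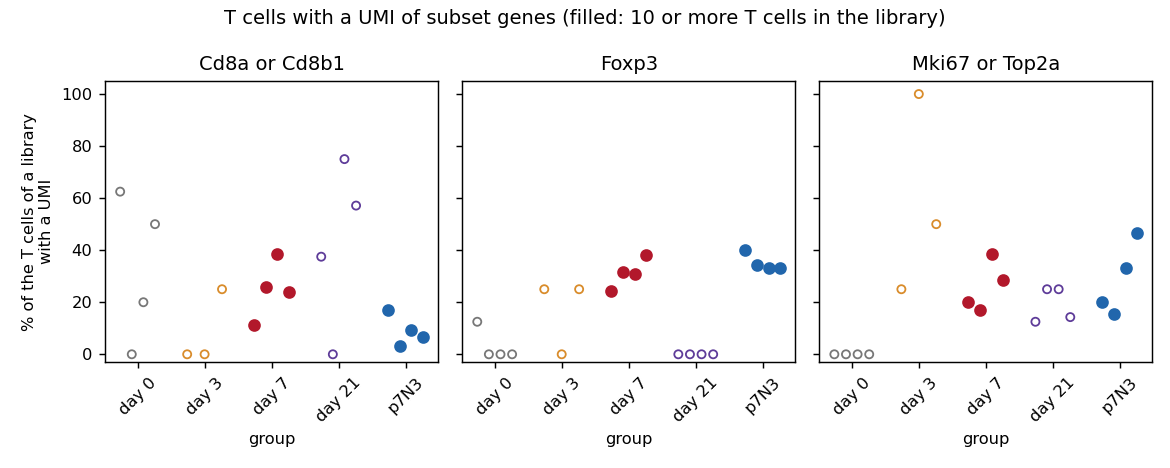
Percent of the T cells of a library with a UMI of each set of subset genes, per library and group; filled points are libraries with 10 or more T cells and open points those with fewer. Foxp3 is at 0 in all 4 day 21 libraries and between 24.4% and 40% in the day 7 and p7N3 libraries.

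What accompanies Foxp3 was described in the 217 T cells of day 7 and p7N3, without a test because the cells were split on a measured gene. The 71 cells with a Foxp3 UMI had a median of 4719 UMIs, and the 146 others 3983, so shares are given after thinning each cell to 1500 UMIs. The costimulatory receptor OX40 (Tnfrsf4) was detected in 87.3% of Foxp3 cells and 14.4% of the others, 4-1BB (Tnfrsf9) in 77.5% and 10.96%, GITR (Tnfrsf18) in 76.1% and 30.8%, and the transcription factor Helios (Ikzf2) in 76.1% and 34.2%. Ctla4, the inhibitory receptor, was detected in 57.7% and 14.4%, and the interleukin-2 receptor chain Il2ra in 45.1% and 7.53%. These genes are known companions of Foxp3, and for Tnfrsf4, Tnfrsf9, Ikzf2, Ctla4 and Il2ra the unthinned share was higher in Foxp3 cells in 8 of 8 libraries. Areg, which encodes amphiregulin, was detected in 31.0% of Foxp3 cells and 8.90% of the others, and the interleukin-33 receptor Il1rl1 in 15.5% and 4.11%. Gzmb, a cytotoxic protease, was detected in 49.3% and 12.3%. The chemokine Ccl5, by contrast, was detected in 19.7% and 39.7%, the granule gene Nkg7 in 7.04% and 41.1%, and Tcf7, a factor of naive and memory cells, in 0% and 17.8%. Nkg7 and Tcf7 were lower in Foxp3 cells in 8 of 8 libraries. The fibroblast transcript Col1a1 was detected in 50.7% and 52.1%.

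**Figure D3:**
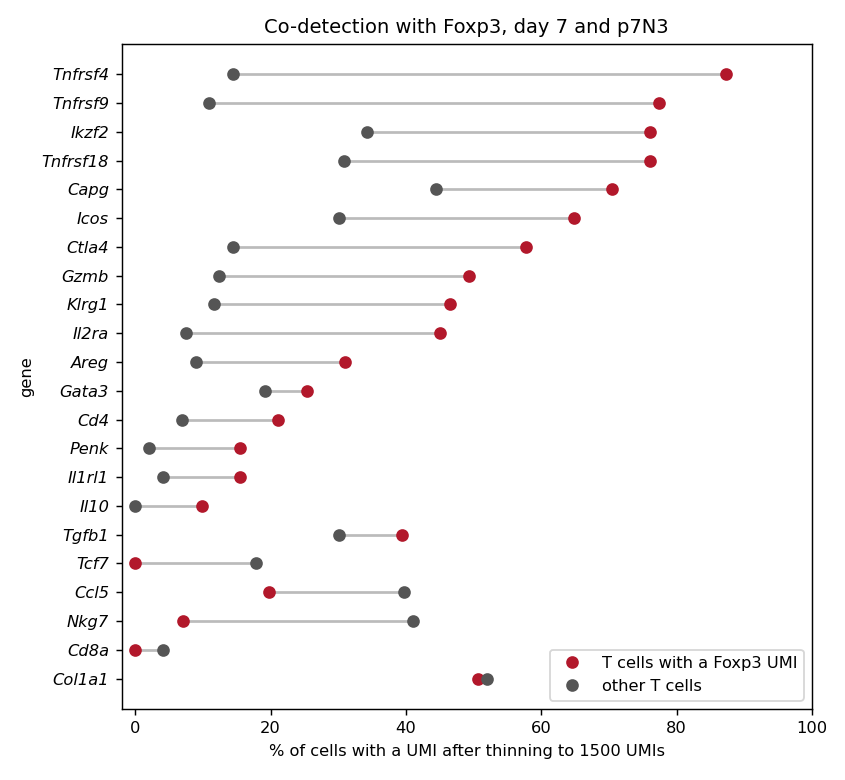
Percent of T cells of day 7 and p7N3 with a UMI of each gene after thinning to 1500 UMIs per cell, for cells with a Foxp3 UMI (red) and without (grey). Tnfrsf4 (87.3% against 14.4%) has the widest gap, and Col1a1, carried by both, has nearly none.

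Gene expression was compared on UMIs summed over the T cells of a library. Only day 7 and p7N3 had libraries of at least 10 T cells, so the comparison of day 7 with day 0 used libraries of at least 5, which left 2 day 0 libraries of 8 and 5 cells and 38975 UMIs in all. Of 2566 genes tested, 103 (4.01%) passed at an adjusted p under 0.05 (edgeR quasi-likelihood test), 59 (2.3%) higher and 44 (1.71%) lower at day 7. Of the regulatory list, 6 of 10 genes tested rose and none fell, with a median log2 fold change of 2.91, against 0.46 over all genes tested. Other T cell lists had larger medians with fewer genes past the threshold, among them 4.94 over 10 type 1 and cytotoxic genes (1 passed). The median was 5.89 over 19 cell cycle genes (0 passed) and 3.05 over 6 T cell cytokines (0 passed). None passed of 2 type 2 and tissue repair genes (median 7.27), 2 CD47 system genes (3.54) and 3 tissue residency genes (3.06). Over 7 chemokine and lymph node exit receptors it was 3.16, and the 1 that passed, Ccr7, was lower. Fitted values of genes at 0 at day 0 depend on the prior count. Among markers of other cell types with at least 2 genes tested, none passed, and the medians were 4.52 over 7 stromal, 4.54 over 5 macrophage, 5.28 over 4 MHC class II, 4.33 over 2 granulocyte, 4.39 over 3 erythrocyte, 1.58 over 4 pericyte and smooth muscle and -0.11 over 2 endothelial genes. Lists with 1 gene tested stood at 7.01 (NK cell), 1.90 (platelet), -5.63 (Schwann cell) and -2.80 (skeletal muscle), and none passed. NK markers summed to 0 CPM in all 4 day 0 libraries and to 219, 307, 281 and 316 CPM at day 7. The erythrocyte genes summed to 712 and 920 CPM at day 0 and to 332, 392, 38669 and 128 CPM at day 7, so that 3 of the 4 day 7 libraries lay below both. The part of other cells' RNA in these results was not tested. Tnfrsf4 stood at 36 and 0 CPM in the day 0 libraries and at 791, 664, 814 and 1174 CPM at day 7, without overlap (log2 fold change 4.97 ± 0.76 SE, adjusted p = 0.00195). Tnfrsf9 was at 0 CPM in both day 0 libraries and at 669, 446, 459 and 625 CPM at day 7, which is at least 7.35-fold higher against a floor of 3 UMIs over the day 0 cells (adjusted p = 0.00369). Ctla4 (log2 fold change 3.23), Ikzf2 (2.57), Tnfrsf18 (2.60) and the actin-capping gene Capg (3.89) passed as well. The single T cell of day 0 replicate 2, which was too small a library for the fit, did have UMIs of Tnfrsf4 and Tnfrsf9, each at 625 CPM, and of Tnfrsf18, at 417 CPM. Foxp3 itself did not pass (53.4 against 108 CPM, adjusted p = 0.804), with 3 UMIs in 1 day 0 cell.

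Gzmb, the cytotoxic protease, was at 0 in both day 0 libraries and at 625, 535, 325 and 1106 CPM at day 7, at least 8.65-fold higher (adjusted p = 0.0255), and was the only 1 of 10 type 1 and cytotoxic genes tested to pass. Over all libraries, Gzmb was at 427 CPM in NK cells and 478 CPM in T cells, and the part of NK RNA in its rise was not tested. Rora, a nuclear receptor of effector and tissue T cells, was at 0 in both and at 310, 169, 222 and 361 CPM, at least 3.46-fold higher (adjusted p = 0.0255), with 151 CPM in day 0 replicate 4, outside the fit. Of 9 glycolysis genes, Pkm (log2 fold change 2.28) and Gapdh (1.42) rose. Of 17 immediate early and dissociation genes, Jund alone passed, with a rise of 1.22 on the log2 scale. None of 19 cell cycle genes tested passed, though 18 had a log2 fold change above 0 (median 5.89), against 1623 of all 2566 genes tested. For those at 0 at day 0, the bounds against a floor of 3 UMIs ran from 0.51-fold (Cdk1) to 2.68-fold (2810417H13Rik). The adaptor gene Grb2, the anti-apoptotic gene Bcl2a1d, Gm2a, Hcls1 and BC021614 completed the 10 largest rises among genes at least as high in T cells as in other cells, and Fn1, a fibronectin gene that other cells carry more of, was at 0 at day 0 and at 440 CPM on average at day 7. The T cell of day 0 replicate 2, outside the fit, had Bcl2a1d and Pkm at 834 CPM each, Gapdh at 1459 CPM and Jund at 2502 CPM.

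On the other side, Ccr7, the lymph node homing receptor, stood at 676 and 92 CPM at day 0 and at 17, 69, 59 and 30 CPM at day 7 (log2 fold change -3.51 ± 0.78 SE, adjusted p = 0.0190). The 92 CPM of day 0 replicate 3 is 1 UMI, below the floor of 3 counts there (276 CPM), so its place above the day 7 values rests on that UMI. Outside the fit, it was at 1665 CPM in the 2 T cells of day 0 replicate 4 and at 0 in the single T cell of replicate 2. Of 16 T cells at day 0, 8 had a Ccr7 UMI, against 13 of 114 at day 7. Ccr7 was the only 1 of 9 naive and recirculating genes tested to pass, and 8 of the 9 had a negative log2 fold change (median -1.86). Of all 2566 genes tested, 44 (1.71%) passed as lower and 1623 had a log2 fold change above 0. Hivep2, a zinc finger gene, fell too (263 to 38.3 CPM on average, adjusted p = 0.0310), but was at 0 in both day 0 libraries outside the fit. Other named genes that fell carry the symbols of ribosomal protein gene copies: Rps27rt (log2 fold change -2.75), Rpl9-ps6 (-2.47), Rps18-ps3 (-2.47), Rpl27-ps3 (-2.37) and Rps12-ps3 (-2.36). The rest were the numbered gene models Gm10263 (-2.94) and Gm12840 (-3.46), and Wdr89 (-2.71), which encodes a WD repeat protein. Like Hivep2, Gm10263 was at 0 in both day 0 libraries outside the fit. Gene copies can share reads with their parent genes, and their counts are uncertain. Of 81 ribosomal protein genes tested, 14 fell and 78 had a negative log2 fold change. Together they took 42.0%, 33.3%, 39.9% and 41.5% of the T cell UMIs in the 4 day 0 libraries and 29.0%, 25.7%, 24.1% and 25.5% at day 7, without overlap (exact permutation p = 0.0286, the smallest possible, adjusted p = 0.114 over 4; examined after the calls were seen). In all other kept cells the mean share was 16.3% at day 0 and 2.73 percentage points higher at day 7, so it lay on the other side there.

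The day 0 side of this comparison rested on 2 libraries. Without day 0 replicate 1, 50 genes passed, and without day 0 replicate 3, 66 passed; 30 and 49 of the 103 remained. Each of these fits has a single day 0 library, assumed to vary like the libraries of the other groups. Of the 10 named genes that rose, 4 remained in each case, and of the 10 that fell, 1 remained without replicate 1 and 7 without replicate 3. With the T cells that had over 2% other-cell UMIs left out, 98 of the 102 still tested were called again. Such cells were 0 of 16 at day 0 and 14 of 114 at day 7, so this fit used mostly the same cells. It cannot show the part of other cells' RNA below that limit.

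**Figure D4:**
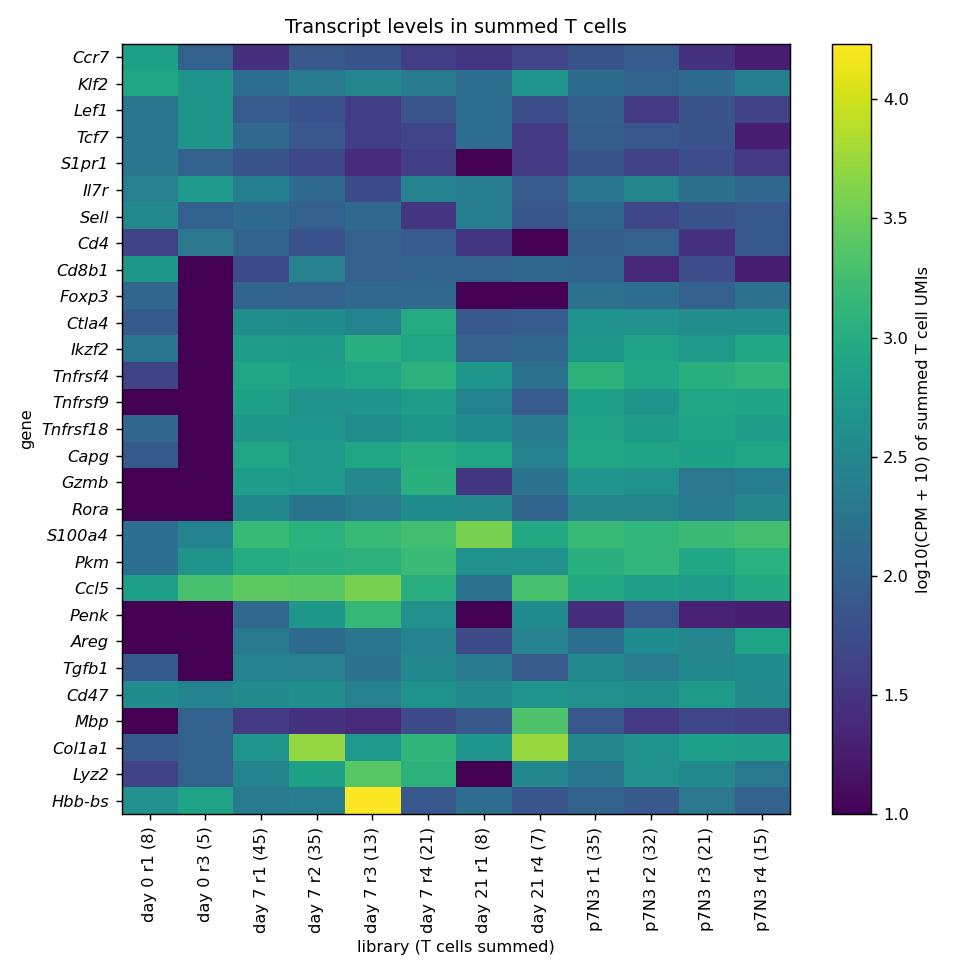
Level of named genes (log10 of CPM + 10, colour) in the summed T cells of each library with at least 5 T cells, the number of cells in brackets. Ccr7 is highest in the day 0 columns, and Tnfrsf4, Tnfrsf9, Gzmb and Rora are at or near the bottom of the scale there. Mbp and Hbb-bs are each far higher in a single column than in the others.

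At day 21, again with 2 libraries of 8 and 7 T cells, 2 of 2566 genes (0.0779%) passed against day 7 (edgeR quasi-likelihood test). The first was Mbp, at 69 and 2104 CPM at day 21 and 15 to 45 CPM at day 7 (log2 fold change 5.58 ± 0.78 SE, adjusted p = 0.00973). All 167 Mbp UMIs of the higher library came from the single cell described above, and without day 21 replicate 4, which leaves a single day 21 library, the adjusted p was 0.652. The second was Clic4, a chloride channel family gene (200 against 29.6 CPM on average, adjusted p = 0.0417). Other cells carry more of Clic4 (178 CPM, against 86.5 CPM in the T cells of the libraries compared). It had 7 UMIs in day 21 replicate 1 and 19 in replicate 4. Without day 21 replicate 4 its log2 fold change was 2.51, against 2.97 with it, and its adjusted p 0.398. At an unadjusted p under 0.05 there were 308 genes, and DESeq2 called 53. Foxp3 was at 0 in both libraries, at least 4.28-fold lower than at day 7, and did not pass (adjusted p = 0.0533). Gzmb, at 23 and 164 CPM, did not pass either (adjusted p = 0.144). With libraries of at least 4 T cells, an alternative added after the data were seen that keeps all 4 day 21 libraries, 31 genes passed. Foxp3 (edgeR adjusted p = 0.00917) and Gzmb (adjusted p = 0.0249) were then among them, with Gzmb at 0 in the 2 added libraries, and Clic4 was not (adjusted p = 0.0599).

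Against day 0, 41 of 2566 genes (1.6%) differed at day 21, 23 higher and 18 lower (edgeR quasi-likelihood test). The same libraries of day 0 entered here and in the day 7 comparison. Of the 41 genes, 12 were called again without day 0 replicate 1, 14 without day 0 replicate 3, 31 without day 21 replicate 1 and 12 without day 21 replicate 4, each fit having a single library on one side. S100a4, a calcium-binding protein of memory and effector T cells, stood at 142 and 276 CPM at day 0 and at 3802 and 920 CPM at day 21 (log2 fold change 3.75 ± 0.59 SE, adjusted p = 0.00511). Outside the fit, it was at 4639 and 3080 CPM in the other day 21 libraries, and at 1145 to 1776 CPM at day 7 and 1276 to 1880 CPM at day 3. Traf1, an adaptor of TNF receptors, rose by 3.50 on the log2 scale, from 36 and 0 CPM at day 0 to 392 and 189 CPM, and was at 625 CPM in the T cell of day 0 replicate 2, outside the fit. Capg rose by 3.40, with 3.89 in the day 7 comparison, Hcls1 by 3.35, with 3.35 there, and Gm2a by 3.34, with 3.73 there. The cytoskeletal genes Actg1 (1.69) and Cfl1 (1.23), and Clic1 (1.86), Rbm3 (1.63) and Sh3bgrl3 (1.38), also rose. Rbm3 stood at 676 and 552 CPM at day 0 and at 1866 and 1663 CPM at day 21, but outside the fit it was at 1668 and 303 CPM at day 0 and at 546 and 1891 CPM at day 21, so that all libraries together overlapped. Tsc22d3, a glucocorticoid-induced gene of resting lymphocytes, fell (564 to 76.5 CPM on average, adjusted p = 0.0330), as did Fyb, a T cell receptor adaptor (525 to 118 CPM, adjusted p = 0.0330). Rnf138 fell from 252 to 29.3 CPM, and the rest of the named genes that fell were 5 with the symbols of ribosomal protein gene copies (Rpl13-ps3, Rpl6l, Rps27rt, Rpl9-ps6 and Rpl27-ps3) and the numbered gene models Gm10020 and Gm9493. For Rps27rt, Rpl9-ps6 and Rpl13-ps3 all libraries together overlapped. Outside the fit, day 21 replicate 2 (14658 UMIs) had 41, 12 and 4 UMIs of them. Day 0 replicate 2 (4797 UMIs) had 10 of Rps27rt, and day 0 replicate 4 (6607 UMIs) had 4 of Rpl9-ps6 and 1 of Rpl13-ps3. The T cell of day 0 replicate 2 had no UMI of Tsc22d3 or Rnf138. Fn1, Tmem256 and Ctsz, which other cells carry more of, were at 0 in both day 0 libraries of the fit and at 1158, 316 and 193 CPM at day 21. Outside the fit, Tmem256 was at 625 CPM in the T cell of day 0 replicate 2, and Ctsz was at 0 in day 21 replicate 3.

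p7N3 was compared with day 7 to ask whether activating CD47, a receptor that myeloid and lymphoid cells carry, altered the T cells at the site. Of 2072 genes, 0 (0%) passed with edgeR, with 95 at an unadjusted p under 0.05; DESeq2 called 2, both lower with p7N3. The 61 genes (2.94%) whose libraries did not overlap included those 2, Ccl5 and Penk, which also had the smallest p values and were picked out for that reason. Ccl5, a chemokine of cytotoxic and memory T cells that NK cells carry at a higher level (5928 CPM over all NK cells, 1532 over all T cells), stood at 2723, 2533, 3846 and 1099 CPM at day 7 and at 902, 659, 609 and 935 CPM with p7N3 (means 2550 ± 1128 and 776 ± 166, SD, n = 4). Its log2 fold change was -1.79 ± 0.31 SE and its adjusted p 0.0696 (edgeR). Over 22 alternatives the log2 fold change ran from -2.15 to -1.34, and 7 passed the threshold. It had a UMI in 58 of 114 T cells at day 7 and 30 of 103 with p7N3. NK markers summed to 281 CPM in the day 7 T cells and 158 CPM with p7N3 on average, and their part in the Ccl5 difference was not tested.

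Penk, the gene of the opioid precursor proenkephalin, stood at 118, 506, 1405 and 421 CPM at day 7 and at 16, 65, 10 and 8 CPM with p7N3 (log2 fold change -4.46 ± 0.77 SE, edgeR adjusted p = 0.0696). Over 20 alternatives it ran from -5.53 to -3.47, and 6 passed. In the day 7 libraries 7, 4, 2 and 5 T cells had a Penk UMI. A single cell held 7 of the 27 UMIs of replicate 1 and 47 of the 102 of replicate 2. In replicate 3 it was 65 of 95 UMIs, and in replicate 4 it was 45 of 56. With p7N3, 2, 3, 1 and 1 cells did, with 15 UMIs among them. Of the Foxp3 cells, 4 of 11, 3 of 11, 2 of 4 and 4 of 8 had a Penk UMI in the day 7 libraries, and 2 of 14, 1 of 11, 1 of 7 and 0 of 5 with p7N3. Its share was higher in Foxp3 cells than in the others in 6 of 8 libraries, and lower in p7N3 replicates 2 and 4. Pdgfra cells also carry it (17.9% with a UMI, against 3.07% of Csf1r cells and 0.714% of NK cells). Stromal markers summed to 2614, 16244, 2574 and 5848 CPM in the day 7 T cells, highest in replicate 2, and to 1155, 2120, 3616 and 3585 CPM with p7N3. T cells over 2% other-cell UMIs were 14 of 114 at day 7 and 7 of 103 with p7N3. With these left out, the Penk log2 fold change was -5.16 and that of Ccl5 -1.34. Both then passed the threshold (edgeR adjusted p of 0.0014 and 0.0119). Without day 7 replicate 3, Penk did not pass (log2 fold change -3.72, edgeR adjusted p = 0.0752). The part of other cells' RNA in the 2 differences was not tested. Dcn and Lyz2, marker genes of fibroblasts and macrophages, came next by p (log2 fold changes -2.47 and -2.07, adjusted p of 0.591 and 0.720).

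Other genes of interest did not pass. Gzmb stood at 648 ± 330 CPM (SD, n = 4) at day 7 and 335 ± 151 with p7N3 (edgeR adjusted p = 0.885), Areg at 192 ± 59.0 and 385 ± 259 (adjusted p = 0.962), Cd8b1 at 118 ± 86.4 and 41.6 ± 40.8 (adjusted p = 0.962), Cd4 at 78.7 ± 18.3 and 65.9 ± 32.6 (adjusted p = 0.967), and Foxp3 at 108 ± 13.01 and 132 ± 30.6 (adjusted p = 0.964). Cd47, the target of the peptide, had a UMI in 210 of the 266 T cells (78.9%), 89.0% of Csf1r cells and 93.7% of Pdgfra cells, and over all libraries was at 393 CPM in T cells and 323 CPM in all other kept cells. In the T cells it stood at 351 ± 83.7 CPM at day 7 and 427 ± 99.1 with p7N3 (log2 fold change 0.19 ± 0.20 SE, adjusted p = 0.964). Tgfb1, the growth factor that the study follows in macrophages, was at 248 ± 64.5 and 301 ± 56.6 CPM (log2 fold change 0.17 ± 0.21 SE, edgeR adjusted p = 0.967). No gene of the 17 T cell lists passed in this comparison. The median log2 fold change was -0.73 over 8 type 1 and cytotoxic genes, 0.36 over 15 cell cycle genes and -0.01 over all genes tested. Ifng was detected in 13 T cells in all, with 32 UMIs in the single T cell of day 0 replicate 2, and Tnfsf11, the osteoclast factor RANKL, in 36, with a UMI in 18.0% of Pdgfra cells.

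**Figure D5:**
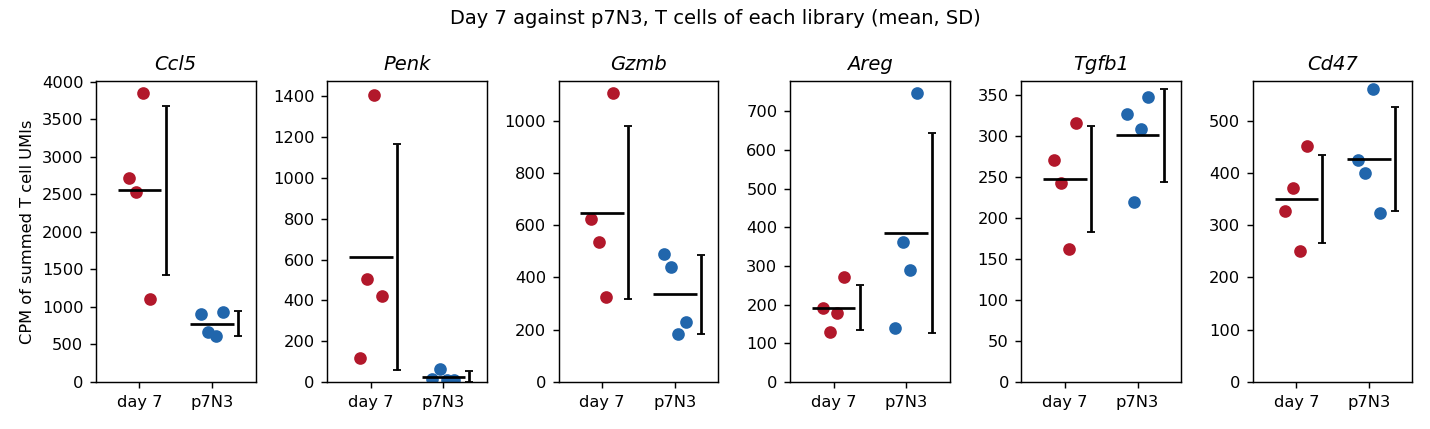
CPM of 6 genes in the summed T cells of the 4 day 7 and 4 p7N3 libraries; points are libraries, horizontal lines means and vertical bars 1 SD to each side, cut at 0 by the axis. The Ccl5 and Penk libraries do not overlap between the groups, and the Gzmb, Areg, Tgfb1 and Cd47 libraries do.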

How the data were processed

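Tissue of the tenotomy site was digested and profiled by droplet single-cell RNA sequencing (10x 3′ chemistry). The authors deposited UMI counts per gene and barcode, which their methods and labels credit to Cell Ranger; Seurat is named for later steps. The gene identifiers are mouse, and the labels name mm10 for some libraries and GRCh38 for others. The matrices hold 27998 genes, without the T cell receptor constant genes. Cells were kept by the limits of the authors (500 genes, 25% mitochondrial UMIs). The members and gene lists were chosen with earlier results of these data known. No doublet caller was run, and cells with an excluded gene were left out. Library depth over T cells ranged from 4797 to 228804 UMIs.

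Shares were compared by exact two-sided permutation tests over libraries. UMIs summed over T cells were tested with edgeR 4.0.16 (TMM, filterByExpr, genes of the rule left out; libraries of at least 10 T cells, or at least 5 where a group had none of 10), with Benjamini-Hochberg adjustment over all genes tested. DESeq2 was an alternative. Day 3 was not tested for expression, since no library reached 5 T cells. The fits were tested on simulated data. A further T cell subset counted in the adjustment of subset shares (over 4 and 12 tests), and some single markers, are not reported here.

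Named genes were, per comparison and direction, the 10 largest changes among genes past the threshold whose library CPM did not overlap, with a mean of at least 50 CPM in the higher group and at least the level of other cells; then the 3 largest without that last condition, list genes that passed, and a few fixed genes. Other transcripts picked after their values were seen are named as such. Thinning drew 1500 UMIs per cell without replacement and left out shallower cells. Intervals are exact binomial (95%), and intervals and floors (3 counts) cover counting error only. Coordinates are from GENCODE vM21, promoter sequences from RefSeq (GRCm38.p6; 3 of 3 genes matched). Alternatives covered the tool, scaling, filters, depth, mitochondrial limit, Cd3 genes required, RNA of other cells, leaving out the fourth replicates (whose labels are laid out differently) and leaving out single libraries.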

Additional observations from a re-analysis of the deposited data

Results flagged for a closer look

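Of 132 groups of 4 libraries examined, 6 held a library far from the other 3, by the gap to its nearest neighbour over the range of the group, which chance gives in about 1 of 20 groups. The Foxp3 share of p7N3 replicate 1 was 40%, above the 33.3% to 34.4% of the other p7N3 libraries. Penk in the T cells of p7N3 replicate 2 was at 64.6 CPM, against 8 to 16 CPM in the others. Ctla4 in day 7 replicate 4 was at 963 CPM, above 281 to 398 CPM. Tnfrsf18 in day 7 replicate 3 was at 385 CPM, below 496 to 511 CPM. Rora in p7N3 replicate 3 was at 213 CPM, below 284 to 297 CPM. Rbm3, which encodes a cold-inducible RNA-binding protein, was at 2846 CPM in p7N3 replicate 4, above 1862 to 1976 CPM.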

How the results depend on the processing

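T cells were few, and this limits every comparison: a library held 1 to 45 of them, day 3 was not tested for expression because no library reached 5 T cells, and the day 0 and day 21 sides of the expression comparisons had 2 libraries each. A share of 0 or a gene at 0 was therefore not detectable at this depth rather than absent. The alternatives for the time course were added after the cell numbers were seen. Where a value below moved, the cause was not tested.

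The difference in the T cell share of kept cells between day 21 and day 0 (0.0229 percentage points) changed sign with cells thinned to 1500 UMIs (-0.0528), at most 10% mitochondrial UMIs (-0.0216), at least 1 Cd3 gene (-0.320), no excluded genes (-0.00153), replicates 1 to 3 only (-0.0127), and over left-out libraries (-0.0563 to 0.151). So did p7N3 against day 7 with thinning (-0.0361) and over left-out libraries (-0.132 to 0.209), and day 7 against day 0 with at least 1 Cd3 gene (-0.0774). Among Ptprc cells, day 7 against day 0 turned to 0.304 with thinning. There, day 21 against day 0 turned to 1.90 with thinning, to 0.367 with all 3 Cd3 genes, and ran from -1.33 to 0.173 over left-out libraries, while p7N3 against day 7 ran from -0.369 to 0.236. The log2 T to NK ratio turned to -0.0246 for p7N3 against day 7 with thinning and to -0.121 for day 7 against day 0 with at least 1 NK gene. The cycling share, p7N3 against day 7, was -2.22 with replicates 1 to 3 only and -3.06 to 7.29 over left-out libraries. No share past its threshold existed to be lost.

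For p7N3 against day 7 (0 genes past the threshold), DESeq2 called 2, no low count filter 87, the replicate block 1 (Penk, adjusted p = 0.00605, edgeR), thinning 1, T cells with little RNA of other cell types 2, genes at least as high in T cells as in other cells 2, replicates 1 to 3 only 1, and left-out libraries 0 to 1. For day 7 against day 0 (103), no low count filter called 316, at least 10 UMIs in every library 54, at least 2 T cells 197, little RNA of other cell types 163, and left-out libraries 50 to 127. For day 21 against day 7 (2), the counts were 53 with DESeq2, 15 with RLE factors, 171 with no low count filter, 23 with at least 10 UMIs, 22 with the replicate block, 0 with only the 2 groups compared, 31 with at least 4 T cells, 34 with at least 2, 1 with at most 10% mitochondrial UMIs, 15 with all 3 Cd3 genes, 15 with thinning, 18 with genes at least as high in T cells, and 0 to 83 over left-out libraries. For day 21 against day 0 (41) they were 70 with DESeq2, 188 with no low count filter, 25 with at least 10 UMIs, 21 with the replicate block, 26 with only the 2 groups, 69 with at least 2 T cells, 20 with thinning, and 14 to 117 over left-out libraries.

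Replicate numbers did not pair the libraries: deviations of p7N3 and day 7 libraries of the same number correlated at 0.108, 0.0206, 0.0832 and -0.0436 across genes, and the block gave 86 calls for day 7 against day 0. All 3 Cd3 genes left too few day 0 libraries, and little RNA of other cell types too few day 21 libraries, for their comparisons to be run.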

Other observations

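The 10 T cells of day 3 lay in libraries below the minimum of 5 and are given as values, without a test. Gzmb stood at 1689, 0 and 801 CPM in the 3 day 3 libraries, with 0 in all 4 day 0 libraries. S100a4, which was named above for its rise from day 0 to day 21, stood at 1809, 1880 and 1276 CPM, with 0 to 276 CPM at day 0. Rora stood at 362, 385 and 178 CPM, with 0 in 3 of the 4 day 0 libraries and 151 CPM in the fourth. Ccr7 stood at 0, 0 and 59 CPM. Of the 10 cells, all had a UMI of Lyz2, a macrophage and neutrophil lysozyme, against 2 of 16 at day 0 and 76 of 114 at day 7, and granulocyte markers reached 7923 CPM in replicate 3. The part of such RNA in the day 3 values was not tested.

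Beside the genes already described, the cells with a Foxp3 UMI at day 7 and with p7N3 more often had a UMI of Icos (64.8% against 30.1%, thinned to 1500 UMIs), a costimulatory receptor, of Klrg1 (46.5% against 11.6%), a receptor of differentiated cells, and of Lag3 (11.3% against 2.74%), an inhibitory receptor. Il10, an anti-inflammatory cytokine, was detected in 9.86% of them and in 0 of 146 others. Tgfb1 was detected in 39.4% and 30.1%, and its unthinned share was higher in Foxp3 cells in 8 of 8 libraries. These shares carry no test, as the cells were split on a measured gene.

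Ccr7 at these times had a UMI in 13 of the 34 T cells with Cd8a or Cd8b1 (38.2%) and in 13 of the 183 others (7.10%), at median depths of 4147 and 4303 UMIs, again without a test.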
